A study of Homo sapiens with 6 samples.

Results

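Peaks of N4-acetylcytidine (ac4C) on 2 classes of non-coding host were examined: long intergenic non-coding RNAs (lincRNAs) and pseudogenes. A peak was included when the Ensembl gene it was listed for carried the biotype lincRNA, or a biotype containing the word pseudogene, in the deposited expression table. Of the 15622 peaks called on both acetylated RNA immunoprecipitations (acRIP) together, 321 were included. LincRNA hosts held 122 peaks, which is 0.781% of the list (95% Wilson interval 0.655 to 0.932), on 95 genes. Pseudogene hosts held 199 peaks, 1.27% (1.11 to 1.46), on 175 genes. Protein-coding hosts, with 14697 peaks on 7612 genes, served as the comparison.

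The series holds 6 libraries, of which 3 came from SW480 cells and 3 from DLD-1 cells. Both are established lines of human colorectal cancer, grown in DMEM with fetal bovine serum and antibiotics, given as wild type and left without treatment. For each line there was an Input of total RNA, an acRIP of fragmented total RNA pulled down with an anti-ac4C antibody, and an immunoprecipitation (RIP) of RNA bound by NAT10. With 1 library per group there was no replicate, so no difference between libraries or lines was tested, and every interval given here covers counting error only.

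ac4C is an acetyl mark on cytidine that NAT10, an RNA acetyltransferase, writes in human RNA. Its best known sites are in 18S ribosomal RNA and in some transfer RNAs, and it has also been mapped in messenger RNA, where it has been linked to stability and translation. LincRNAs are transcripts without a long reading frame that lie between protein-coding genes, while pseudogenes are copies of genes that have lost coding function. Processed pseudogenes arose by reverse transcription of a messenger RNA and can be nearly identical in sequence to their parent, so short reads from one may be placed on the other. Unprocessed pseudogenes arose by duplication of a gene and keep its introns.

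The peak lists give the positions of sites of a pattern of 12 bases, CNNCNNCNNCNN, in which N is any base. Such a site was listed in 64 of the 122 lincRNA peaks (52.5%, 43.7 to 61.1), in 92 of the 199 pseudogene peaks (46.2%, 39.4 to 53.2) and in 54.1% (53.2 to 54.9) of protein-coding peaks, so the intervals of all 3 classes met or overlapped. Sequence was at hand for 3 included peaks with a listed site, where they crossed a RefSeq promoter window of GRCh38.p14. They are shown because they let the pattern be read letter by letter in a lincRNA and in a pseudogene. Capitals mark the listed site, and each run is written 5′ to 3′ on the strand of the peak, in the build GRCh38: chr15:75368569-75368598 on the plus strand for the lincRNA AC068338.2, chr7:5429104-5429133 on the plus strand for the lincRNA AC092171.5 and chr11:33075968-33075997 on the minus strand for PIGCP1, a processed pseudogene of a gene of the glycosylphosphatidylinositol anchor pathway.
AC068338.2: cggcgcagcCGCCATCGCCGGgctctcgct
AC092171.5: gattggagcCAACCACCTCCAgcggggttt
PIGCP1: gctggtaggCCACCTCATCTTttttaacta

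The peak fold over Input was 13.6 for AC068338.2 (called in the SW480 list at 14.6), 7.25 for AC092171.5 (SW480 list, 8.33, and above the false discovery rate of 0.05) and 9.96 for PIGCP1 (DLD-1 list, 18.5). Over all peaks of the list, 195 of the 202 listed sites that fell within such windows (96.5%) read as the pattern on the strand of the peak. The pattern is permissive: 74.9% of all 35116 promoter windows held it on the gene's strand and 90.3% on either strand, with overlapping matches allowed. A match describes the letters of the window and shows no modified base.

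Before the levels of the hosts are given, the labels of the RIP libraries need a remark. Across 16196 protein-coding genes, the library labelled RIP SW480 correlated on the log2(FPKM + 1) scale more closely with the Input labelled DLD-1 (Pearson r = 0.944, a description across genes) than with the Input labelled SW480 (0.871). The library labelled RIP DLD-1 correlated more closely with the Input labelled SW480 (0.951) than with that labelled DLD-1 (0.856). The hosts described here showed the same crossing, and RIP values are therefore given against both Inputs and called by the library's label. Both Inputs had epithelial markers (KRT8 at 1642 and 813 FPKM, EPCAM at 324 and 127 in SW480 and DLD-1), while PTPRC of leukocytes and HBB of red cells were listed at 0. Of the colorectal markers CDX2 stood at 33.4 and 7 and VIL1 at 1.13 and 0.261, and VIM, a mesenchymal gene, at 0.077 and 11.1.

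A smaller share of lincRNAs and pseudogenes than of protein-coding genes carried a peak, also at like Input levels. Of all 12324 genes with at least 1 FPKM in both Inputs, 6801 had a peak (55.2%). The share was 38 of 269 lincRNAs (14.1%, 10.5 to 18.8), 105 of 754 pseudogenes (13.9%, 11.6 to 16.6) and 6580 of 10350 protein-coding genes (63.6%, 62.6 to 64.5). It was larger in bins of higher Input in each class. Between 1 and 5 FPKM it was 10.7% of 178 lincRNAs, 6.03% (4.21 to 8.58) of 464 pseudogenes and 42% of 2501 protein-coding genes. With the Inputs of the acRIP table, the pseudogene share in this bin was 13.9% (10.3 to 18.4) of 281. Between 5 and 25 FPKM it was 19.8% (12.5 to 29.7) of 81 lincRNAs, 20.4% (15.5 to 26.2) of 216 pseudogenes and 66.4% (65.1 to 67.6) of 5713 protein-coding genes. Above 25 FPKM it was 3 of 10 lincRNAs (30%, 10.8 to 60.3), 33 of 74 pseudogenes (44.6%, 33.8 to 55.9) and 81.4% (79.7 to 83) of protein-coding genes. The intervals of both non-coding classes lay below those of protein-coding genes in all 3 bins, and those of lincRNAs and pseudogenes overlapped each other.

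**Figure D1:**
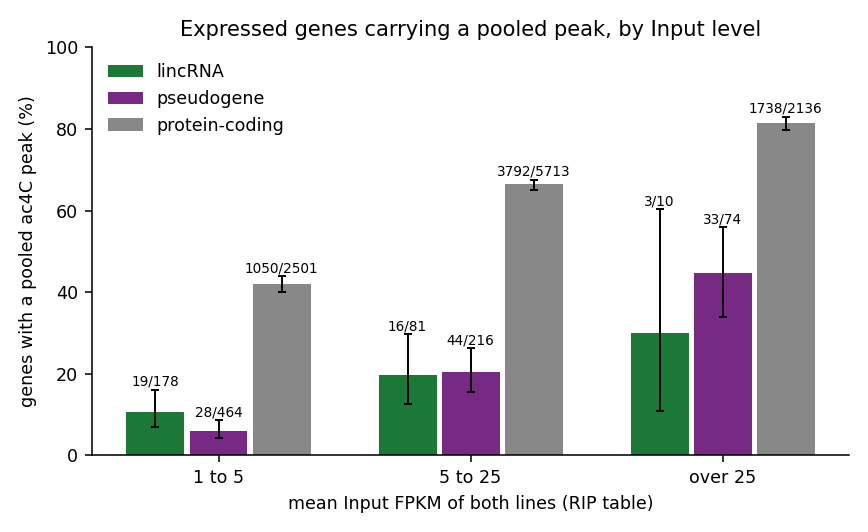
The bars give the percentage of genes with a pooled ac4C peak, by mean Input FPKM of both lines on the horizontal axis, and the lines are 95% Wilson intervals. Above 25 FPKM the share was 30% for lincRNAs, 44.6% for pseudogenes and 81.4% for protein-coding genes.

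Abundance alone did not place a lincRNA among the hosts. MALAT1, a nuclear RNA of splicing speckles, was listed at 1174 FPKM in the SW480 Input and 1200.2 FPKM in the DLD-1 Input and had no peak in the pooled list. SNHG8, a small nucleolar RNA host gene, stood at 97.7 and 107 FPKM and had none either. Of 24 well-known lncRNA names that carried the biotype lincRNA, 10 reached 1 FPKM in both Inputs, and 5 of these were hosts: NEAT1 with 9 peaks, NORAD and SNHG15 with 3 each, and SNHG19 and CYTOR with 1 each. The other members of the 10 were CRNDE (4.58 and 5.24 FPKM), MIR22HG (7.95 and 10.5) and SNHG25 (2.46 and 1.33), which had no peak. TUG1 and GAS5, often called lncRNAs too, had peaks but carry other biotypes in the table and were not counted.

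NEAT1, the RNA scaffold of paraspeckles, held more peaks than any other lincRNA host. Its level was 32.6 FPKM in the SW480 Input and 49.4 in the DLD-1 Input, and its RIP values were 54.4 FPKM under the SW480 label and 42 under the DLD-1 label. The 9 peaks fell in 3 parts of its span of 22743 bases. At the 5′ end, 3 peaks that overlap one another lay between bases 59 and 541 with pooled folds of 5.24 to 5.87, and their folds were 7.93 in the SW480 list and 4.72 in the DLD-1 list. Between bases 2247 and 3587 there were 4 peaks, of which the first, chr11:65425045-65425405, had the highest fold of the gene at 25 (13.8 in the SW480 list and 34.5 in the DLD-1 list). The others had folds of 3.74 to 9.4 and are not separate, since the peak at bases 2810 to 3587 overlaps those at 2846 to 3086 and 3386 to 3566. The remaining 2 lay at bases 16719 to 16899 (fold 6.57, in the SW480 list alone at 15.4) and 17528 to 17948 (fold 9.8). That last peak was the most unequal of the gene between the lists, at 52 in SW480 and 5.43 in DLD-1.

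NORAD, a cytoplasmic RNA that binds Pumilio proteins, was the most abundant lincRNA host in the table of the RIP experiment, at 104 and 75.9 FPKM in the SW480 and DLD-1 Inputs. All 3 of its peaks overlapped the DLD-1 list and none overlapped the SW480 list. The peak nearest the 3′ end, at bases 5098 to 5278 of 5343, had a pooled fold of 39.8 and a DLD-1 fold of 35.4. The peaks at bases 1110 to 1230 and 2669 to 2819 had pooled folds of 5.21 and 2.02 and DLD-1 folds of 18.1 and 4.98. The fold of 2.02 was the lowest of any lincRNA peak.

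SNHG15, which hosts a small nucleolar RNA in an intron, had its 3 peaks in the distal part of a span of 3674 bases. From 5′ to 3′ their pooled folds were 6.34, 11.8 and 33.3. The middle peak had nearly equal folds in the lists, 18 in SW480 and 18.9 in DLD-1. The last, at bases 2963 to 3613, had 7.98 in SW480 and 97.5 in DLD-1. The Inputs of SNHG15 went the other way, with 13.2 FPKM in SW480 and 6.32 in DLD-1.

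**Figure D2:**
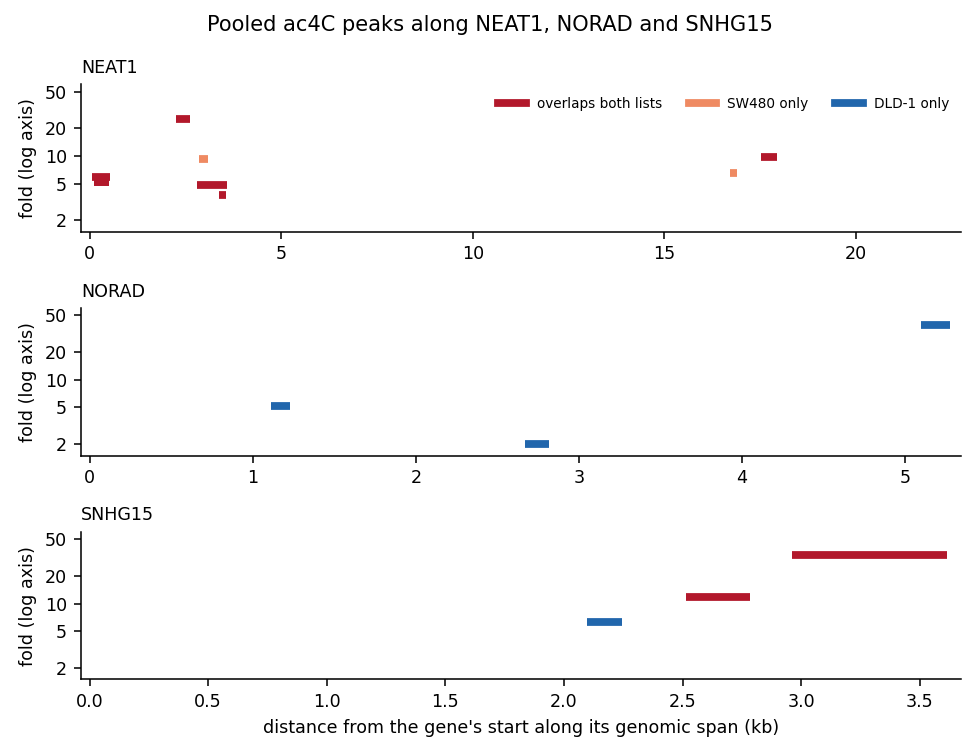
Each bar is a pooled peak drawn to scale along the genomic span of NEAT1, NORAD or SNHG15, with distance from the gene's start in kilobases on the horizontal axis, fold over Input on a logarithmic vertical axis, and colour for the single-library lists it overlaps. The highest peaks of NORAD (39.8) and SNHG15 (33.3) lie near the 3′ ends, while that of NEAT1 (25) lies in the proximal part.

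LINC01503 was the one of 22 LINC-named lincRNA hosts with peaks in the lists of both lines, although no single peak of it was in both. Its peak at chr9:129338864-129341948, which spans a junction of 2 blocks, had a fold of 33.5 and was in the SW480 list alone (28.1). Those at 129342006 to 129347454 and 129333939 to 129334175 had folds of 49.8 and 12.7 and were in the DLD-1 list alone (42.5 and 10.2). Each rested on 1 Input read. LINC01503 stood at 0.228 and 6.41 FPKM in the SW480 and DLD-1 Inputs of the RIP table, and at 0 in both Inputs of the acRIP table.

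Several of the highest lincRNA folds rested on 1 Input read. The fold and p-value of a peak could be solved for the number of acRIP and Input reads behind it in 93 of 122 lincRNA peaks and 157 of 199 pseudogene peaks. A value of 1 Input read came out for 67 lincRNA peaks (54.9% of all, 46.1 to 63.5), 109 pseudogene peaks (54.8%, 47.8 to 61.5) and 29.4% (28.7 to 30.2) of protein-coding peaks, and may stand for 0 reads where the caller adds a floor. With 1 Input read the fold is the number of acRIP reads times a constant, so these folds rank read numbers. LINC01468 had a fold of 128 from 141 acRIP reads against 1 Input read and was listed in DLD-1 alone, at 111. LINC01089 (120.0) and LINC00665 (110.0) had 132 and 122 acRIP reads against 1, and both were in the SW480 list alone, at 134 and 115. LINC00665 and LINC01468 were at or below 0.351 FPKM in both Inputs, whereas LINC01089 stood at 3.82 and 7.65 FPKM.

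Other lincRNA peaks of high fold were called in both lists, and some of these also rested on 1 Input read. AC245041.2, LINP1 and PVT1 had 111, 87 and 59 acRIP reads against 1, and SNHG19 and AP002360.2 were left unsolved. The higher of the AC245041.2 peaks had a fold of 101 (23.9 in SW480, 69.2 in DLD-1), and it lies within the span of ANXA8, an annexin gene. LINP1, a lincRNA described in DNA double-strand break repair, had 78.8 (60.4 and 22.8) and was listed at 0 in both Inputs. SNHG19 had 55.2 (9.89 and 103), and AP002360.2 45.7 (48.9 and 29.9). PVT1, the neighbour of MYC, had 53.4 (47.9 and 10.2) with Inputs of 9.74 and 25.2 FPKM. CYTOR had 9.06 from 10 acRIP reads against 1 and was in the DLD-1 list alone, at 7.87.

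SFTA1P and EBLN3P bear names of pseudogenes but carry the biotype lincRNA, and LINC00680 bears a lincRNA name but the biotype of a pseudogene. SFTA1P had 1 peak of fold 62.5 over 4 blocks. EBLN3P had 2 peaks of 8.45 and 7.85, both in the DLD-1 list alone. LINC00680 had 2 peaks, of 15.4 in the SW480 list and 12.7 in the DLD-1 list.

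Some of the lincRNA peaks lay where another gene was listed too. Of the 122, 19 (15.6%, 10.2 to 23) overlapped a pooled peak of another host on either strand, 5 of them on the same strand. For pseudogenes this was 17 of 199 (8.54%, 5.4 to 13.3), 9 on the same strand, and for protein-coding peaks 9.32%. All 3 peaks of AC040162.3 coincided on the same strand with peaks of EDC4, a factor of messenger RNA decapping. They had folds of 10.3, 29.9 and 10.9, in both lists, while AC040162.3 itself was at 0.508 and 0.019 FPKM. The highest lincRNA fold, 197 on LINC01764 (188 in the SW480 list), shared its region with UCA1, whose own Inputs were 10.3 and 0.999 FPKM against 0 and 0 for LINC01764. MCTS2P, a retrogene that lies in an intron of HM13, shared its peak of fold 50.7 with HM13. In each of these the reads could belong to either gene.

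Without regard to strand, 37 lincRNA peaks (30.3%, 22.9 to 39) and 62 pseudogene peaks (31.2%, 25.1 to 37.9) lay wholly within the span of a gene that RefSeq lists as protein-coding. No such share was counted for other positions of the genome, so these shares have no background to be read against. Examples are AC006011.1 within POLR2D, a subunit of RNA polymerase II, and AC005606.2 within GFER. The peak of FP236383.3, at chr21:8437629-8437926 with a fold of 10.9 from 60 acRIP and 5 Input reads, lies between bases 8436876 and 8438744, where RefSeq places RNA18SN1, a copy of 18S ribosomal RNA. It was listed on the minus strand, and in the SW480 list alone at 16.1.

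Pseudogene peaks had the lowest median fold and length of the 3 classes. The median fold was 10.4 (quartiles 7.25 and 15.4), beside 11.8 (8.15 and 24.9) for lincRNAs and 13.6 (7.25 and 29) for protein-coding hosts. The 95% order-statistic intervals of the pseudogene median (9.06 to 11.8) and the lincRNA median (10.9 to 14.5) overlapped. The median length was 178 bases for pseudogenes, 204 for lincRNAs and 211 for protein-coding hosts. Peaks of more than 1 block, which cross a splice junction, made up 9.55% (6.2 to 14.4) of pseudogene peaks, 24.6% (17.8 to 32.9) of lincRNA peaks and 35.2% of protein-coding peaks. By biotype the 199 were 115 on processed, 42 on transcribed unprocessed, 24 on transcribed processed and 13 on unprocessed pseudogenes, and 5 on other kinds.

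Whether a peak of the pooled list was also called in a single library differed between the classes. A peak was counted as called in a line when it overlapped a peak of that line's own list by at least 1 base on the same strand. Both lists held 24 lincRNA peaks (19.7%, 13.6 to 27.6), 48 pseudogene peaks (24.1%, 18.7 to 30.5) and 32.3% (31.5 to 33) of protein-coding peaks. SW480 alone held 44 lincRNA (36.1%, 28.1 to 44.9) and 57 pseudogene peaks (28.6%, 22.8 to 35.3), beside 20.2% (19.6 to 20.9) of protein-coding peaks. DLD-1 alone held 43 (35.2%, 27.3 to 44.1) and 41 (20.6%, 15.6 to 26.8), beside 42.4% (41.6 to 43.2). For both lists the interval of each non-coding class lies below that of protein-coding hosts, and for SW480 alone above it. For DLD-1 alone the pseudogene interval lies below it and the lincRNA interval contains it. Peaks in both lists had higher median pooled folds than those in 1 list, but the pooled fold contains the reads of both lines. For lincRNA hosts the medians were 25.6 (9.8 to 35.3) and 12.7 (10.9 to 14.5). For pseudogene hosts they were 14.9 (10.3 to 26.3) and 11.8 (9.96 to 13.6), so the intervals overlapped in both classes. Protein-coding hosts had medians of 32.6 (30.8 to 34.4) and 10.9.

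Pooled peaks in neither list took their largest share on pseudogenes. They were 53 of 199 pseudogene peaks (26.6%, 21 to 33.2), 11 of 122 lincRNA peaks (9.02%, 5.11 to 15.4) and 757 of 14697 protein-coding peaks (5.15%, 4.8 to 5.52). These peaks rested on a median of 10 acRIP reads in each class. The share within pseudogenes was 40 of 115 for processed ones (34.8%, 26.7 to 43.9) and 2 of 42 for transcribed unprocessed ones (4.76%, 1.32 to 15.8), a difference whose intervals do not overlap.

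The share in neither list was smaller at higher read numbers, and pseudogenes stood above protein-coding genes also at like read numbers. Among peaks with 1 Input read and 10 or fewer acRIP reads, 29 of 37 on pseudogenes (78.4%, 62.8 to 88.6), 5 of 10 on lincRNAs (50%, 23.7 to 76.3) and 323 of 758 on protein-coding genes (42.6%, 39.1 to 46.2) were in neither list. With 11 to 20 acRIP reads it was 15 of 47 (31.9%, 20.4 to 46.2), 4 of 30 (13.3%, 5.31 to 29.7) and 192 of 1623 (11.8%, 10.3 to 13.5). Above 20 reads none of 25 pseudogene and 27 lincRNA peaks were in neither list (upper Wilson limits 13.3% and 12.5%), and 2 of 1944 protein-coding peaks were. The pseudogene intervals lay above the protein-coding ones in the lower 2 bins, and the lincRNA intervals overlapped both. The cause was not tested.

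**Figure D3:**
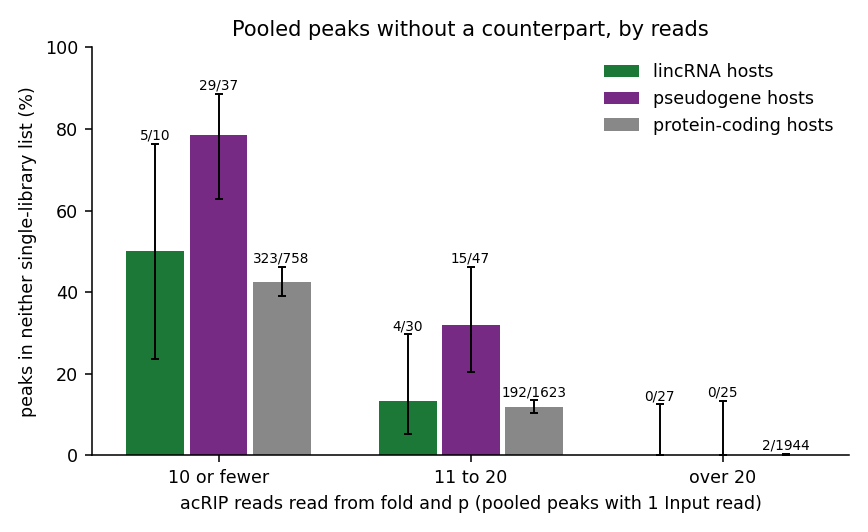
Bars give the percentage of pooled peaks with 1 Input read that overlap no peak of either single-library list, by number of acRIP reads on the horizontal axis, with 95% Wilson intervals. At 10 or fewer reads the share was 78.4% on pseudogenes, 50% on lincRNAs and 42.6% on protein-coding genes, and above 20 reads no pseudogene or lincRNA peak was in neither list.

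Copies of ribosomal protein genes were the largest listed family of pseudogene hosts, and 963 of the 14690 pseudogenes in the table are annotated as such copies. Of 175 hosts, 61 with 70 peaks belonged to families on the list, and 39 of these, with 40 peaks, were ribosomal protein pseudogenes. Their folds ranged from 2.34 to 96.9 with a median of 11.6, and 17 of the 40 peaks were in both lists. Of 84 ribosomal protein pseudogenes with at least 1 FPKM in both Inputs, 28 had a peak (33.3%, 24.2 to 43.9). Within bins of Input, chosen after seeing the data, 2 of 33 had one between 1 and 5 FPKM (6.06%, beside 6.03% of other pseudogenes), 15 of 32 between 5 and 25 FPKM (46.9%, 30.9 to 63.6, beside 15.8%, 11.2 to 21.7) and 11 of 19 above that (57.9%, 36.3 to 76.9, beside 40%, 28.1 to 53.2). The intervals were apart in the middle bin alone. Ferritin gave 5 hosts, HNRNP and elongation factor 1 gave 4 each, PPIA 3, tubulin and HMG 2 each, and NPM1 and annexin 1 each. No pseudogene host bore the name of a keratin, actin, heat shock or GAPDH gene.

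Within the family the values were uneven. RPSAP19, a copy of the laminin receptor gene RPSA, had the highest fold, 96.9 (68.7 in SW480 and 35.4 in DLD-1), with Inputs of 7.15 and 10.7 FPKM. RPS28P7 had 79.9 (228 and 18) and, at 952 and 1154 FPKM, was the most abundant pseudogene host of the RIP table. RPS20P14 had 32.6 (34.1 and 29.9) and RPS26P3 33.5 (22.9 and 25.2), with folds close to each other in the lists, while RPL9P9 had 32 (21.1 and 53). RPL18AP3, RPL13AP5 and RPS2P5 were abundant in the RIP table, at 828, 489 and 505 FPKM in the SW480 Input, and had low folds of 4.75, 5.18 and 6.58. In the acRIP table the same Input had them at 1.38, 4.45 and 363, so only RPS2P5 was abundant in both.

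A pseudogene's peak can be set beside those of its parent. By symbol, 99 of the 175 hosts had a protein-coding parent, and these were 65 different genes, of which 53 (81.5%, 70.4 to 89.1) had a pooled peak of their own. Parents above 25 FPKM in both Inputs had one in 31 of 34 cases (91.2%, 77 to 97), beside 83.4% (81.5 to 85.1) of all protein-coding genes at that level, so the interval contained the background. The highest fold on the pseudogene exceeded the highest on the parent in 15 of 83 hosts whose parent had a peak. RPSAP19 was one of the 15, with 96.9 against 35.9 on RPSA.

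In a few pairs the peak was on the copy and not on the parent. FTH1, the ferritin heavy chain, stood at 1616 and 4179 FPKM and had no pooled peak, yet 5 of its pseudogenes held 7 peaks with folds of 2.43 to 11.8, none of them in both lists. RPS28 stood at 103 and 66 FPKM and had none, whereas RPS28P7 had its peak of 79.9.

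Transcribed pseudogenes of duplicated genes were among the highest folds of the class. WASH6P, a copy of a subunit gene of the WASH complex that acts in endosome sorting, had 129 from 142 acRIP reads against 1 (136 in SW480 and 8.65 in DLD-1). HERC2P2, a copy of the ubiquitin ligase gene HERC2, had 70.6 from 78 acRIP reads against 1 (35.4 and 56.6). RP9P had 62.5 from 69 against 1 (15.6 and 43.3). AC106795.1 had 65.7 (77 and 54.3). FAM27E3, a transcribed processed pseudogene, had 68.8 from 76 acRIP reads against 1 and was in the SW480 list alone, at 78.1. In the SW480 Input HERC2P2 was the most abundant of the 5, at 10.7 FPKM, and in the DLD-1 Input it was RP9P, at 8.58.

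HNRNPA1P48, a copy of the splicing factor gene HNRNPA1, held 4 listed peaks, more than any other pseudogene. They form 2 pairs of peaks that overlap each other, so the 4 are not separate regions. Peaks at chr16:51646653-51646953 and 51646635 to 51646780 had folds of 26.3 and 20.8 and were in both lists at 11.5 and 14.2. The other 2, both at 9.06 from 10 acRIP reads, were in neither list. PTMAP5, a copy of the prothymosin alpha gene, had 2 overlapping peaks of 59.8 and 40.5 (41.6 and 73.2). FTH1P10 and SCAND2P had 3 peaks each, with folds of 3.62 to 11.8 and 6.34 to 10.4, and 2 of the FTH1P10 peaks overlap each other. MTCO1P12, a nuclear copy of a mitochondrial gene, had 14.5 (13.5 and 7.08).

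Many hosts had low levels in the Inputs. In the table of the RIP experiment the median FPKM of lincRNA hosts was 0.669 in SW480 and 1.41 in DLD-1, of pseudogene hosts 3.28 and 2.9, and of protein-coding hosts 10.5 and 10.9. Among genes above 0 in the library, lincRNA hosts had medians of 1.65 and 2.36 against 0.74 and 1.01 for lincRNAs without a peak. Pseudogene hosts had 6.49 and 4.81 against 0.961 and 0.96, a gap that was smaller in the second table of the same Inputs, from the acRIP experiment, at 1.87 and 1.94 against 1.01 and 0.967. Of 95 lincRNA hosts 20 (21.1%, 14.1 to 30.3) were listed at 0 in both Inputs, and of 175 pseudogene hosts 22 (12.6%, 8.45 to 18.3), beside 300 of 7612 protein-coding hosts (3.94%, 3.53 to 4.4). Of the lincRNA hosts at 0, 9 were above 0 in the acRIP table, and 11 lincRNA and 14 pseudogene hosts were at 0 in all 4 Input columns of the tables. LincRNA hosts at 0 in the RIP table shared a region with another host in 7 of 20 cases, and pseudogene hosts in 9 of 22. For protein-coding hosts at 0 this was 194 of 300, so such sharing is not particular to the 2 non-coding classes.

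The highest fold of any peak in either class was on such a host. AC011603.4, a processed pseudogene at chr12:49075692-49075802 on the plus strand, had a fold of 273 from 301 acRIP reads against 1 Input read, and 237 in the DLD-1 list. It was in the DLD-1 list alone, and it was listed at 0 in both Inputs of each table and in both RIP libraries. The peak covers 111 bases, the shortest of its class, and holds no listed site. AC006011.1, likewise at 0 throughout, had 26.3 (86.4 in SW480 and 15.7 in DLD-1), and shared its region with POLR2D. These values come from separate tables, and how each counted reads of repeated sequence is not given in the sources used here.

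The level of a pseudogene host depended on which deposited table it was read from. The Inputs are given in the table of the RIP experiment and again in that of the acRIP experiment, whose unit is not named and is read here as FPKM. On the log2(FPKM + 1) scale the median difference of the RIP table from the acRIP table was 1.20 in SW480 and 1.18 in DLD-1 for pseudogene hosts, 0.18 and -0.04 for lincRNA hosts, and 0.49 and 0.54 for protein-coding hosts. Over all 834 pseudogenes compared it was 0.82 and 0.94, so the shift was not particular to hosts. For processed pseudogene hosts it was 2.07 and 1.83. The medians of processed pseudogene hosts were thus 8.17 and 4.7 FPKM in the RIP table, but 1.05 and 0.978 in the acRIP table. Those of transcribed unprocessed hosts were 1.9 and 1.5 against 1.33 and 1.21.

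Of 13668 genes with at least 1 FPKM in both Inputs of either table, 148 (1.08%) were at least 4-fold higher in the RIP table in both lines. Among pseudogene hosts it was 32 of 114 (28.1%, 20.6 to 36.9), all of them processed or transcribed processed, and among lincRNA hosts 0 of 49. RPL18AP3 stood at 828 and 517 FPKM in the RIP table and at 1.38 and 8.23 in the acRIP table. RPL13AP5 stood at 489 and 351 against 4.45 and 5.59, RPSAP58 at 259.7 and 116 against 4.6 and 5.21, and RPL3P4 at 44.6 and 33.5 against 0 and 0.437. RPS2P5, at 505 and 216 against 363 and 131, was as abundant and was not among the 32.

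The opposite was seen for a few lincRNA hosts. At least 4-fold lower in the RIP table in both lines were 583 genes (4.27%), 5 of 49 lincRNA hosts and 3 of 114 pseudogene hosts. AC004542.1, which lies within the span of TUG1, was at 0 and 0 in the RIP table and at 104 and 33.6 in the acRIP table. AC027290.1, which shares its region with VPS37B, was at 0 and 0 against 22.5 and 38, and FP236383.3 at 0.667 and 0.321 against 146 and 88.6. RPL23AP42, a pseudogene, was at 0.291 and 0 against 82 and 58.5. What the annotations and read assignment of the tables share was not tested.

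**Figure D4:**
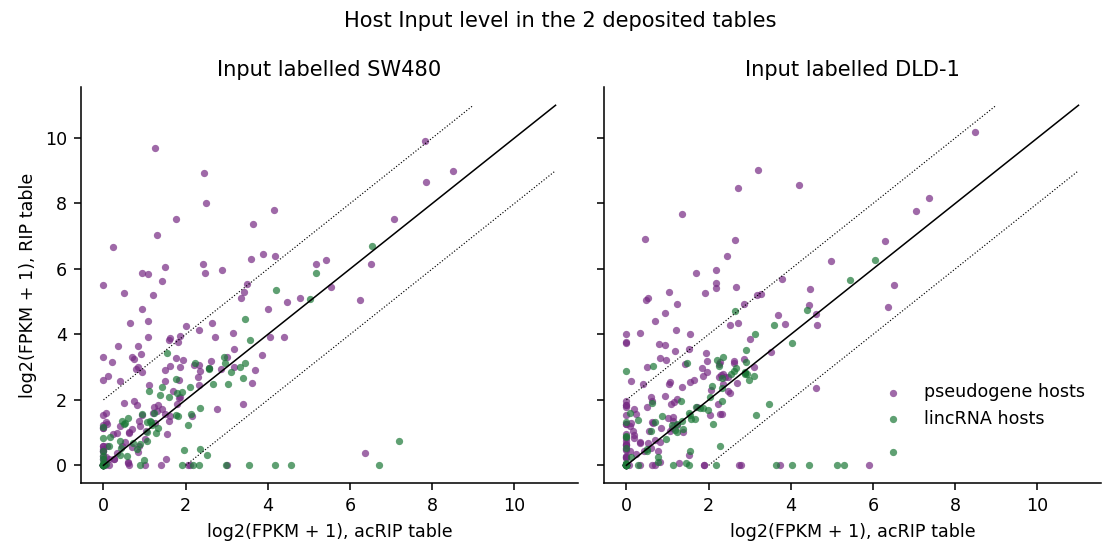
Each point is a host gene, for the Input labelled SW480 (left) or DLD-1 (right), with log2(FPKM + 1) in the acRIP table on the horizontal axis and in the RIP table on the vertical axis, a solid line of equality and dotted lines at 4-fold. A group of pseudogene hosts lies far above the diagonal, with 32 of 114 at least 4-fold higher in the RIP table in both lines, and no lincRNA host does.

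NAT10-bound RNA was compared with Input for hosts of at least 1 FPKM in both Inputs, 38 lincRNAs and 105 pseudogenes. A gene was called when log2((RIP + 1)/(Input + 1)) was at least 1. Under the SW480 label 1926 of 12324 genes were called (15.6%), with 8 lincRNA hosts (21.1%, 11.1 to 36.3) and 13 pseudogene hosts (12.4%, 7.38 to 20), both intervals containing the background. Under the DLD-1 label 1862 genes were called (15.1%), with 4 lincRNA hosts (10.5%) and 39 pseudogene hosts (37.1%, 28.5 to 46.7). The pseudogene median was -0.30 under the SW480 label and 0.23 under the DLD-1 label, beside 0.05 and -0.05 over all genes tested.

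Set against the Input of the other label, both RIP libraries gave the same count of pseudogene hosts. RIP SW480 over Input DLD-1 called 1139 genes (9.24%), among them 22 pseudogene hosts (21%, 14.3 to 29.7) and 1 lincRNA host. RIP DLD-1 over Input SW480 called 1154 genes (9.36%), among them 22 pseudogene hosts (21%) and 5 lincRNA hosts. The count under the DLD-1 label thus fell from 39 to 22 when the Input was exchanged, and the share stayed above the background in both.

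Requiring both RIP libraries to be at least 2-fold above both Inputs does not depend on the labels. It was met by 398 genes (3.23%), by 9 of 105 pseudogene hosts (8.57%, 4.57 to 15.5) and by 1 of 38 lincRNA hosts. EEF1A1P5, a copy of the gene of translation elongation factor 1 alpha, stood at 185 and 115 FPKM in the SW480 and DLD-1 Inputs and at 507 and 698 in the RIP libraries. H3F3AP4, a copy of a histone H3.3 gene, stood at 33.6 and 36.2 in the Inputs and 149 and 223 in the RIP libraries, RPL21P75 at 18 and 15.2 against 93.4 and 119, and RPS20P14 at 12.5 and 8.64 against 31.9 and 66.4. The others were AC007969.1, AC115223.1, RPL21P16, RPL7AP6 and RPS7P1. The highest peak folds of the 9 ran from 4.64 on EEF1A1P5 to 32.6 on RPS20P14, on both sides of the class median of 10.4. The lincRNA was AC005332.9, at 1.99 and 2.66 FPKM in the Inputs and 23.1 and 10.7 in the RIP libraries, with a peak of 22.6 in the SW480 list alone.

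Between the lines, most hosts were not called 2-fold apart in the Inputs with the pseudocount of 1 FPKM. With it a host below 1 FPKM in both Inputs cannot be called, which held for 35 lincRNA and 43 pseudogene hosts. The Input labelled SW480 was at least 2-fold above that labelled DLD-1 in 2720 of the 24864 genes above 0 in an Input (10.9%), in 8 of 75 lincRNA hosts and in 20 of 153 pseudogene hosts. The reverse held for 3757 genes (15.1%), 16 of 75 lincRNA hosts (21.3%) and 11 of 153 pseudogene hosts. With a pseudocount of 0.1 the counts rose to 15 lincRNA and 38 pseudogene hosts higher in SW480, and to 27 and 25 higher in DLD-1. Peaks called in 1 line were mostly on hosts not called 2-fold apart with the pseudocount of 1 FPKM. These counts include hosts below 1 FPKM in both Inputs, so they do not show that the levels were alike. Of 42 lincRNA hosts with a peak in the SW480 list alone, 2 were at least 2-fold higher in SW480 and 7 in DLD-1, and of 36 with a peak in the DLD-1 list alone, 3 were higher in SW480 and 7 in DLD-1. In the acRIP table the latter counts were 7 and 3. For pseudogenes in the RIP table they were 2 and 4 of 54, and 2 and 3 of 39. For protein-coding hosts they were 142 and 283 of 2529, and 263 and 295 of 4024.

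The 7 lincRNA and 4 pseudogene hosts whose Inputs were at least 4-fold apart show the crossed labels gene by gene. In all 11 the RIP library was higher under the label whose Input was lower. The same held for 1132 of 1853 genes so far apart (61.1%), a background that includes genes at 0 in both RIP libraries, and for 205 of 208 protein-coding hosts. MNX1-AS1, a lincRNA beside the homeobox gene MNX1, had Inputs of 0.131 and 10.4 FPKM and RIP values of 9.63 and 0.801 under the SW480 and DLD-1 labels. LINC01503 had Inputs of 0.228 and 6.41 and RIP values of 4.01 and 0.485. SNHG19 had Inputs of 39.8 and 4.33 and RIP values of 9.28 and 33.5. AL035661.1 was listed at 6.16 and 0 in the Inputs and at 0 and 14 in the RIP libraries. Among pseudogenes RPS26P3 had Inputs of 13.8 and 1.49 and RIP values of 4.75 and 14.1, and AC004057.1 had 87.7 and 11.9 and then 149.8 and 440.5. An exchange of labels and a difference in what was bound cannot be told apart with 1 library per group.

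**Figure D5:**
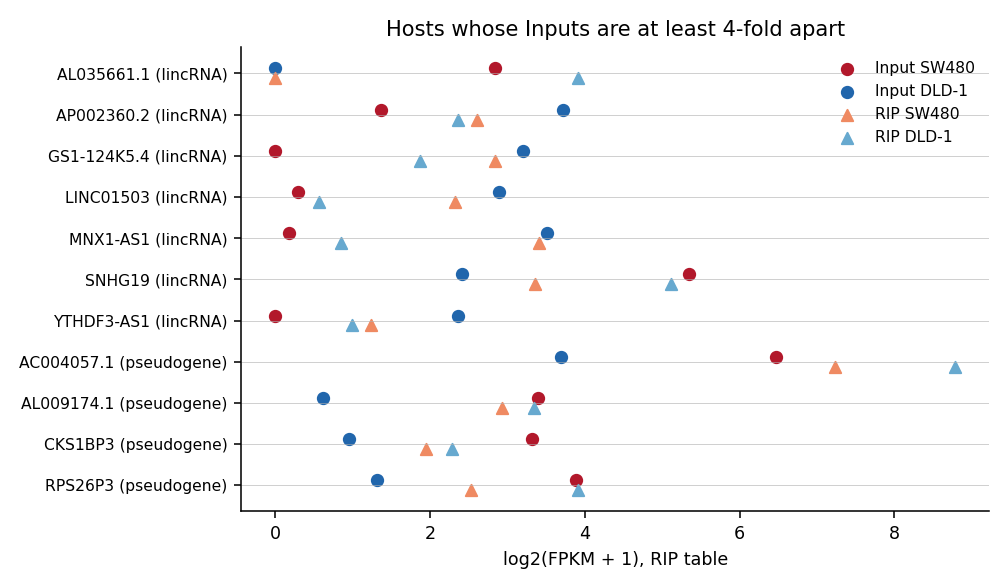
For each of the 11 hosts whose Inputs are at least 4-fold apart, the markers give log2(FPKM + 1) in the Input and RIP libraries labelled SW480 and DLD-1. In every row the higher RIP value carries the label of the lower Input, as for MNX1-AS1 with Inputs of 0.131 and 10.4 FPKM and RIP values of 9.63 and 0.801.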

How the data were processed

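The authors deposited a peak list for each acRIP library and one for both together, with a fold over Input (a ratio), a p-value and an adjusted p-value per peak, a numeric score column that was not used, and positions of a sequence pattern in each peak. They also deposited the Inputs and RIP libraries as FPKM, and a second table with the Inputs whose unit is not named. Per the labels' processing notes, reads were trimmed with cutadapt 2.5 and aligned with HISAT2 2.1.0, with GRCh38 among the builds named. The peak caller, its handling of multiply mapped reads and the counting tool are not given in the sources used here, so the depth of the libraries is unknown. In the pooled list, 640 adjusted p cells hold spreadsheet errors, 2 of them in the peaks described. The single-library lists hold 9536 (SW480) and 13964 (DLD-1) peaks.

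Starts were counted from 0 in the lists and have been raised by 1. Overlap meant at least 1 base of the aligned blocks, on the same strand for the single-library lists and on either strand for other hosts. Fold changes are log2((a + 1)/(b + 1)) with a pseudocount of 1 FPKM, called at 2-fold (4-fold between tables), and shares carry 95% Wilson intervals. Read numbers were solved for pooled peaks whose fold was a ratio of whole numbers times 0.906 that also gave the listed p as a binomial tail with a rate of 0.523, and the others were left unsolved. Levels of sex-linked genes of the Y chromosome were left out. Overlaps, intervals and the read solution were tested on simulated data (Python 3.11.15, pandas 2.3.3, numpy 2.4.6, scipy 1.17.1). Names were taken from fixed lists, from hosts with 3 or more peaks, from the 8 highest folds and the 8 highest in both lists, from the 5 most abundant hosts and from the 3 highest folds on hosts at 0 in both Inputs. Other named genes (those set apart between tables, Inputs or RIP and Input, genes that share a region, pairs with a parent, and AC068338.2, AC092171.5 and PIGCP1 for their sequence) were chosen after their values were seen. The classes, lists and rules were chosen with earlier results of these data known. Sequences are RefSeq promoter windows (GRCh38.p14), and RefSeq gene spans were found for 65 of 122 lincRNA and 140 of 199 pseudogene peaks. Some genes on the name lists are not reported here.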

Additional observations from a re-analysis of the deposited data

Results flagged for a closer look

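In 4 lincRNA and 3 pseudogene hosts the RIP library was at least 2-fold above Input under one label and at least 2-fold below it under the other, and the difference was not tested. On the log2((RIP + 1)/(Input + 1)) scale, under the SW480 and DLD-1 labels in this order, AC015813.1 was at -1.34 and 1.37, AP002360.2 at 1.25 and -1.37, LINC00857 at 1.10 and -1.14 and SNHG19 at -1.99 and 2.70. The pseudogenes AC106795.1, RPL13P12 and RPS26P3 were at 1.54 and -1.74, at -1.67 and 1.11, and at -1.36 and 2.60. SNHG19, AP002360.2 and RPS26P3 are also among the 11 hosts whose Inputs were at least 4-fold apart and whose RIP values were crossed.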

How the results depend on the processing

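Of 92 recomputed values, 56 stayed near the main one, none reversed and 36 moved as follows. Restricting peaks to folds of 13.6 and higher, the whole-list median, left 54 lincRNA and 69 pseudogene peaks, of which 64.8% and 79.7% overlapped the SW480 list, 59.4% of the pseudogene ones the DLD-1 list, and 55.1% of the pseudogene ones held a listed site. Wider lncRNA biotypes gave 281 peaks and processed pseudogenes alone 115. Sharing a region fell to 4.1% (lincRNA) and 4.52% (pseudogene) on the same strand, and to 9.84% (lincRNA) when 50% of the peak had to be covered. Peaks solved to more than 1 Input read, chosen after seeing the data, had median folds of 7.25 and 6.9. The share of expressed genes with a peak was 8.4% and 8.18% for genes above 0, 26.5% and 32.3% from 5 FPKM, and 18.3% for pseudogenes in the acRIP table, where host medians were 1.13 and 1.06. Hosts below 1 FPKM in both Inputs numbered 35 and 43. RIP calls under the SW480 label became 21 and 26 without a filter, 1 and 22 with the other Input, 5 lincRNAs after centring and 31 pseudogenes with acRIP-table Inputs. Under the DLD-1 label they became 12 lincRNAs without a filter, 2 with acRIP-table Inputs, and 22 pseudogenes with the other Input. With a pseudocount of 0.1, 15 lincRNA and 38 pseudogene hosts were higher in SW480 and 27 and 25 in DLD-1, and 13 lincRNAs were higher in SW480 in the acRIP table. The cause was not tested. A sequence match of pseudogene peaks to other transcripts was not run. No paired analysis was possible because each group has 1 library. Few reads limit peaks of 10 or fewer acRIP reads.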
